A study of Homo sapiens with 12 samples.

Results

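The genes described here are 9 members of the p53 pathway: CDKN1A, MDM2, SPATA18, XPC, PPM1D, GDF15, BTG2, SESN1 and ZMAT3. They were chosen by gene symbol and are 9 of the 60666 human gene rows in the deposited count table. Poly(A) RNA was sequenced from DLD-1, a human colorectal adenocarcinoma line, to follow what happens to transcription when a protein that travels with RNA polymerase II is removed. SPT6 is a histone chaperone of elongating polymerase, and PAF1 is a subunit of the PAF1 elongation complex. The genotypes were SPT6-AID OsTIR1 and PAF1-AID OsTIR1, where AID is a degron tag that marks a protein for destruction when auxin and the plant receptor OsTIR1 are both present. Each line had 2 libraries at each of 0, 2 and 6 h in 500 µM auxin, 12 libraries in 6 groups. All groups, the 0 h groups included, expressed OsTIR1 constitutively, and untagged cells given auxin were not among the libraries, so protein loss and any effect of auxin itself cannot be told apart. The labels give neither how many clones each line represents nor whether the libraries of a group came from separate cultures. The p-values therefore reflect variation between libraries that could be purely technical.

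p53 is a transcription factor that is kept scarce in unstressed cells because MDM2, itself made from a p53 target gene, ubiquitinates it. In cells where p53 functions, DNA damage or other stress lets it bind DNA as a tetramer and raise genes for cell cycle arrest, repair, metabolism and cell death, together with inhibitors such as MDM2 and PPM1D that shut it down again. CDKN1A and GDF15, among others, are also known to be induced without p53. The activity of p53 was not measured here, so the genes below are described as members of the pathway and not as a readout of it.

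The libraries held 31957953 to 115904780 counts, 3.94% to 6.25% of them on fly genes. Epithelial markers were summed at 3590 to 6500 CPM (counts scaled to library size, with TMM factors from edgeR) per library and included EPCAM, KRT8 and CDX2, while CDX1 was at 0 in 12 of 12 libraries and VIL1, LGALS4 and CEACAM5 did not exceed 0.605 CPM. Summed fibroblast markers did not exceed 3.51 CPM, with COL1A2 and LUM at 0 in every library, and summed endothelial markers did not exceed 2.41 CPM. The endothelial sum was 2.03 and 2.41 CPM in SPT6-AID cells after 6 h against 0.392 and 1.25 before auxin, with CDH5 at most 0.0241 and KDR at most 0.0652 CPM in any library. Summed blood markers were at 7.54 to 41.5 CPM, of which HBB made up 6.98 to 39.7, with PTPRC at most 0.239. Mitochondrially encoded genes took 2.39% and 2.45% of human counts in the untreated SPT6-AID libraries, against 3.85% and 3.92% after 6 h. For PAF1-AID cells these shares were 1.63% and 2.16% before auxin, against 2.22% and 3.16% after 6 h. The part of these shifts in the 6 h results below was not tested. Bulk RNA cannot tell fewer cells with a transcript from less transcript per cell.

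At 0 h the members spanned a wide range of levels per length. On the scale of counts per kilobase of deposited transcript length, scaled as for CPM (RPKM), GDF15 was highest in SPT6-AID cells, at 65.7 ± 6.49 (SD, n = 2). XPC followed at 14.7, CDKN1A at 10.3, MDM2 at 7.15, BTG2 at 5.78, PPM1D at 4.17, ZMAT3 at 3.35 and SESN1 at 1.5 RPKM. SPATA18 was barely detected, at 0.00726 RPKM. No neighbours in this order overlapped between their libraries. In PAF1-AID cells at 0 h, CDKN1A (9.65 and 13.8 RPKM) overlapped with XPC (10.6 and 12.2), and MDM2 (5.35 and 7.91) with BTG2 (4.88 and 6.27), so the order within these pairs was not resolved. No member was called as different between the lines at 0 h (0 of 9 with an adjusted p under 0.05 and 0 with an unadjusted p under 0.05, against 0.0337% of the 20791 genes tested, 0 of 9 by DESeq2 and by limma-voom). limma-voom had 1 member with an unadjusted p under 0.05. The XPC libraries did not overlap, at 49.0 and 56.4 CPM in PAF1-AID and 69.0 and 67.6 in SPT6-AID cells. Their log2 difference was -0.38 (95% interval -0.76 to 0.01, adjusted p = 0.76 in edgeR). The order depends on the length used. Per kilobase of deposited gene length, which holds introns, BTG2, a short gene, ranked after GDF15 in SPT6-AID cells at 0 h, at 3.87, ahead of CDKN1A at 2.83, MDM2 at 2.26 and XPC at 2.04.

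After 6 h of auxin the members did not move as a block. In SPT6-AID cells CDKN1A and SPATA18 rose, MDM2, XPC, PPM1D and SESN1 fell, and ZMAT3, GDF15 and BTG2 did not pass the test (quasi-likelihood test in edgeR, p adjusted over all genes tested by Benjamini-Hochberg, threshold 0.05). SPATA18 passed the filter on low counts only through its 6 h libraries, so its call followed from that selection. Without it, 5 of 8 members were called in SPT6-AID cells, 1 higher and 4 lower, against 25.2% of all 20791 genes, 8.76% higher and 16.4% lower. In PAF1-AID cells CDKN1A and SPATA18 were called at 6 h, both higher. Without SPATA18 this is 1 of 8 members, against 10.9% of all genes, 4.2% higher and 6.7% lower. At 2 h PPM1D was the only member called in SPT6-AID cells, where it was lower (0.548% of all genes were called, 0.462% lower). No member was called at 2 h in PAF1-AID cells (0.149% of all genes, 2 members with an unadjusted p under 0.05, 0 called by DESeq2 and by limma-voom). The median log2 fold change of the 8 members other than SPATA18 at 6 h was -0.54 in SPT6-AID cells against 0.04 over all genes, and 0.03 in PAF1-AID cells against 0.02.

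**Figure D1:**
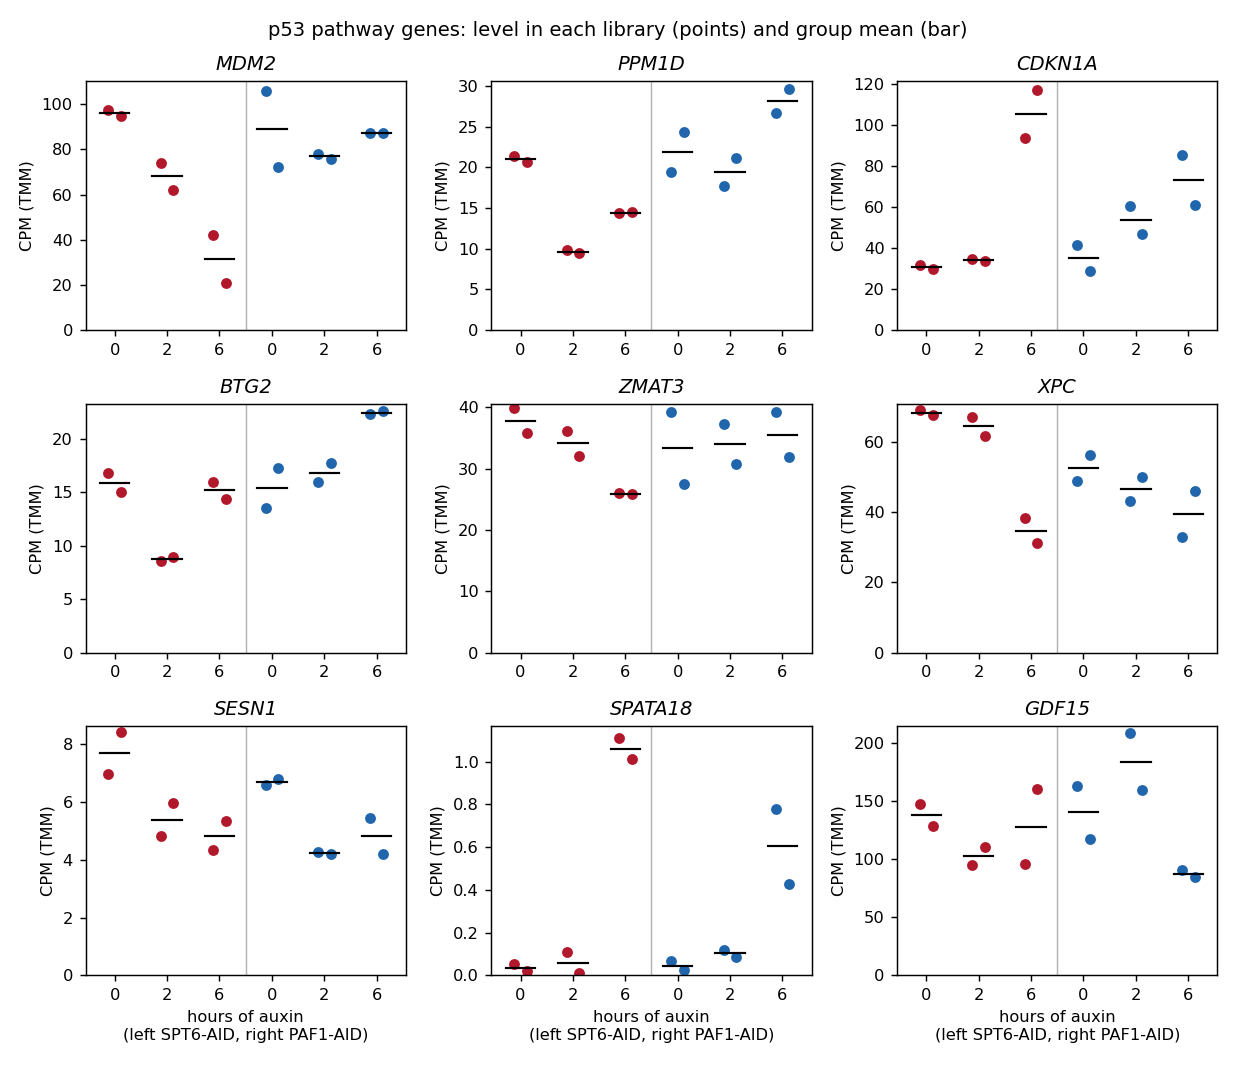
Level of each of the 9 genes in CPM (vertical axis, from 0, TMM-scaled) by hours of auxin (horizontal axis), with SPT6-AID libraries in red on the left of each panel and PAF1-AID libraries in blue on the right; points are libraries and bars are means of 2. CDKN1A and SPATA18 are highest at 6 h in both lines, and MDM2 is lowest in the SPT6-AID libraries at 6 h, at 42.1 and 20.8 CPM.

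MDM2, the ubiquitin ligase that targets p53 (ENSG00000135679, GRCh38 chr12:68808176-68850686, plus strand), fell in the SPT6-AID line. Its libraries were at 97.5 and 94.9 CPM at 0 h, 73.9 and 62.1 at 2 h, and 42.1 and 20.8 at 6 h. The 3 time points did not overlap, and the 6 h libraries differed from each other more than those at any other time point of this line. The log2 fold change against 0 h was -1.61 ± 0.28 (SE, adjusted p = 0.00238) at 6 h and -0.50 ± 0.27 (adjusted p = 0.892) at 2 h. Without the SPT6-AID 6 h library at 42.1 CPM (replicate 1) the 6 h change was -2.17, and without the other 6 h library it was -1.19, both still called. In PAF1-AID cells MDM2 was at 106 and 72.0 CPM at 0 h, 78.1 and 75.7 at 2 h, and 87.1 in both libraries at 6 h. The 2 h and 6 h values lay inside the spread of the 0 h libraries, and the 6 h change was -0.03 ± 0.27 (adjusted p = 0.961).

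MDM2 has an upstream start and an internal start behind its first exon, the latter known for its response to p53. Of 34941 RefSeq promoter windows of 300 bases (GRCh38.p14), 2.93% held a p53 response element with at most 2 mismatches, searched on both strands as 2 units of 10 bases with a spacer of at most 13. The windows of the internal MDM2 start were the only member windows among them. Each unit followed the pattern RRRCWWGYYY, where R is A or G, W is A or T and Y is C or T. The C and the G of the pattern were required in every unit, and mismatches were allowed only at the other bases. The stretch is shown because it carries the closest match of this search among the 9 genes, and the capitals mark both units of that match. Units without the required C and G were passed over, so the capitals need not mark every p53 element in the stretch. It lies at chr12:68808897-68809000 on the plus strand, outside annotated exons, from 120 to 17 bases before the internal start.
MDM2: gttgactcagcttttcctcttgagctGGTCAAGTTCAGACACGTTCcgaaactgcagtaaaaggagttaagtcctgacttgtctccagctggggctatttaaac
The counts are per gene and do not separate transcripts from the upstream and the internal start, and no binding was measured.

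PPM1D, also called WIP1, is a phosphatase that removes activating phosphates from p53 and from the kinases upstream of it (ENSG00000170836, chr17:60600183-60666280, plus strand). It was the only member called at 2 h in SPT6-AID cells, although the 2 h libraries of MDM2, BTG2, SESN1, GDF15 and XPC also lay below their 0 h libraries. Its libraries were at 21.4 and 20.6 CPM at 0 h, 9.79 and 9.45 at 2 h, and 14.4 and 14.5 at 6 h. The 2 h libraries were lowest, the 6 h libraries lay between them and the 0 h libraries, and no groups overlapped. The change was -1.13 ± 0.16 at 2 h (adjusted p = 0.0168) and -0.54 ± 0.16 at 6 h (adjusted p = 0.0307), and from 2 to 6 h PPM1D rose by 0.59 ± 0.16 (adjusted p = 0.0331). In PAF1-AID cells it was at 19.4 and 24.4 CPM at 0 h, 17.7 and 21.1 at 2 h, and 26.7 and 29.6 at 6 h. There the 6 h libraries were above all others of the line, but the change of 0.37 ± 0.16 did not pass (adjusted p = 0.179).

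The SPT6-AID calls of PPM1D had a narrow margin. The 2 h call was lost without 0 h replicate 1 (adjusted p = 0.145), 0 h replicate 2 (0.108), 2 h replicate 1 (0.183) or 2 h replicate 2 (0.179), with a log2 fold change between -1.16 and -1.11 throughout. The 6 h call was lost without 0 h replicate 1 (0.118) or 2 (0.0914), 2 h replicate 2 (0.0519), or 6 h replicate 1 (0.106) or 2 (0.103), at -0.58 to -0.50. The rise from 2 to 6 h was lost in 8 of 12 fits that left out a library, at 0.57 to 0.63, among them those without 2 h replicate 1 (0.129) or 2 (0.158) and without 6 h replicate 1 (0.0637) or 2 (0.117).

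The PPM1D promoter is shown because it was the only member window with the palindrome TGACGTCA, the cAMP response element, which 1.84% of all windows held. The stretch is chr17:60600093-60600182, plus strand, and ends 11 bases before the RefSeq start, with the palindrome in capitals.
PPM1D: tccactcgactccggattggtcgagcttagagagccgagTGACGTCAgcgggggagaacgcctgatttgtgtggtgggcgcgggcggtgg
The best p53 element in this window had 5 mismatches.

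CDKN1A encodes p21, a cyclin-dependent kinase inhibitor that holds back the cell cycle (ENSG00000124762, chr6:36676460-36687339, plus strand). It rose in both lines at 6 h. In SPT6-AID cells the libraries were at 31.6 and 29.9 CPM at 0 h, 34.8 and 33.7 at 2 h, and 93.7 and 117 at 6 h. Both 6 h libraries were far above the others, and the change was 1.78 ± 0.22 against 0 h (3.43-fold, adjusted p = 0.000429) and 1.62 ± 0.22 against 2 h (adjusted p = 0.00173). In PAF1-AID cells they were at 41.4 and 28.9 CPM at 0 h, 60.5 and 46.9 at 2 h, and 85.5 and 60.8 at 6 h. The time points did not overlap, with means of 35.2, 53.7 and 73.2 CPM. The PAF1-AID change was 1.06 ± 0.22 at 6 h (2.08-fold, adjusted p = 0.0138) and 0.61 ± 0.22 at 2 h (adjusted p = 0.492), and from 2 to 6 h it was 0.45 ± 0.22 (adjusted p = 0.407). The PAF1-AID call was lost without 0 h replicate 4 (0.83, adjusted p = 0.0912) or 6 h replicate 3 (0.80, adjusted p = 0.139), whereas the SPT6-AID call at 6 h held in all 12 fits that left out a library. On the RPKM scale CDKN1A passed XPC to rank after GDF15 in SPT6-AID cells at 6 h, at 35.2 against 7.49.

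The CDKN1A promoter is shown for contrast with MDM2: its best p53 element had 4 mismatches, and the well-known p53 sites of this gene lie farther upstream than the window reaches. In capitals are 2 copies of the GC box GGGCGG, a motif that 44.9% of all windows and at least 1 window of each of the 9 members held. The stretch is chr6:36678594-36678657, plus strand, and ends 57 bases before the RefSeq start.
CDKN1A: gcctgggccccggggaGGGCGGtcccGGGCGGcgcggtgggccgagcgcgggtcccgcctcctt

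BTG2, an antiproliferative factor that recruits the deadenylase machinery to mRNA (ENSG00000159388, chr1:203305491-203309602, plus strand), had a course close to that of PPM1D. In SPT6-AID cells it was at 16.8 and 15.0 CPM at 0 h, 8.61 and 8.99 at 2 h, and 16 and 14.4 at 6 h. The 2 h libraries stood apart below the rest, and the 0 h and 6 h libraries overlapped. The dip at 2 h was -0.85 ± 0.17 and missed the threshold (adjusted p = 0.0601), while DESeq2 and limma-voom called it (adjusted p = 0.000308 and 0.0472). From 2 to 6 h BTG2 rose by 0.79 ± 0.17 (adjusted p = 0.0108), which was lost without 2 h replicate 1 (adjusted p = 0.0755) or 2 (0.0611). In PAF1-AID cells it was at 13.5 and 17.3 CPM at 0 h, 16 and 17.7 at 2 h, and 22.3 and 22.6 at 6 h. Both 6 h libraries were above all others of the line, and the change of 0.54 ± 0.16 missed the threshold (adjusted p = 0.0611), with DESeq2 and limma-voom calling it (adjusted p = 0.0153 and 0.0447).

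ZMAT3, a zinc finger RNA-binding protein that acts on splicing and stability of other transcripts (ENSG00000172667, chr3:179017223-179072279, minus strand), had 35.8 and 39.9 CPM in untreated SPT6-AID cells, 32.1 and 36.2 at 2 h, and 25.8 and 26.0 at 6 h. The 6 h libraries were the lowest of all 12, but the change of -0.55 ± 0.19 missed the threshold (adjusted p = 0.0593). With no filter on low counts (edgeR adjusted p = 0.0321) and in the fit of the line alone (0.0429) it was called. DESeq2, limma-voom, total human counts and a mean of at least 1 CPM did not call it. It passed when PAF1-AID 0 h replicate 3 (adjusted p = 0.0308) or 4 (0.0303) was dropped from the fit. In PAF1-AID cells all 6 libraries lay between 27.5 and 39.3 CPM with the time points overlapping. Its deposited gene length of 112095 exceeds the GENCODE 29 span of 55057, so that its level per gene length is not comparable with the others.

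XPC, the damage sensor that starts global nucleotide excision repair (ENSG00000154767, chr3:14145147-14178783, minus strand), fell in SPT6-AID cells at 6 h. Its libraries were at 69.0 and 67.6 CPM at 0 h, 67.1 and 61.7 at 2 h, and 38.2 and 31.3 at 6 h. No time points overlapped, and the 6 h libraries were far below the rest, at -0.97 ± 0.18 against 0 h (adjusted p = 0.0027) and -0.89 ± 0.17 against 2 h (adjusted p = 0.00796). The call against 0 h held in all 12 fits that left out a library, and the call against 2 h was lost without 6 h replicate 2 (-0.76, adjusted p = 0.0694). In PAF1-AID cells XPC was at 49.0 and 56.4 CPM at 0 h, 43.2 and 49.9 at 2 h, and 33.0 and 45.9 at 6 h. Neighbouring time points overlapped, the 6 h libraries were below the 0 h libraries, and the change of -0.42 ± 0.17 did not pass (adjusted p = 0.161). The gene overlaps LSM3 on the opposite strand over 426 bases, and LSM3 had 174% of the counts of XPC over the 12 libraries. The strand setting of the counting is not given in the sources used here, so reads in the shared stretch cannot be assigned.

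SESN1, a sestrin that restrains mTORC1 signalling and oxidative stress (ENSG00000080546, chr6:108986437-109094819, minus strand), was the weakest call. In SPT6-AID cells it was at 6.96 and 8.41 CPM at 0 h, 4.82 and 5.95 at 2 h, and 4.33 and 5.34 at 6 h. The 0 h libraries were above all later ones, and 2 h and 6 h overlapped. The 6 h change of -0.67 ± 0.22 passed at an adjusted p of 0.0465 and missed in each of the 12 fits that left out a library (-0.83 to -0.49, adjusted p from 0.0528 to 0.214). In PAF1-AID cells it was at 6.57 and 6.81 CPM at 0 h, 4.26 and 4.2 at 2 h, and 5.46 and 4.19 at 6 h. The 0 h libraries were again the highest, but neither the 2 h change of -0.66 ± 0.22 (adjusted p = 0.423) nor the 6 h change of -0.47 ± 0.22 (adjusted p = 0.205) passed.

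A downstream RefSeq start of SESN1 is shown because its window held a p53 element of 3 mismatches with no spacer, all of them in the second unit. Of all windows, 12.8% held an element with at most 3 mismatches, and among members so did those of MDM2, ZMAT3 and GDF15. The stretch is chr6:109008989-109009088, minus strand, outside annotated exons, and ends at the base before the start, with the element in capitals.
SESN1: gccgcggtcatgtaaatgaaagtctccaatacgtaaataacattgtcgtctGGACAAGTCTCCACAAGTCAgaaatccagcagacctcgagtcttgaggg

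SPATA18, also called MIEAP and linked to the clearance of damaged mitochondria (ENSG00000163071, chr4:52051331-52097292, plus strand), appeared from almost nothing at 6 h in both lines. In SPT6-AID cells its raw read counts were 3 and 1 at 0 h, 5 and 1 at 2 h, and 51 and 29 at 6 h. In PAF1-AID cells they were 3 and 1 at 0 h, 5 and 4 at 2 h, and 45 and 25 at 6 h. On the CPM scale the 6 h libraries were at 1.01 and 1.11 in SPT6-AID cells and 0.429 and 0.778 in PAF1-AID cells, and every earlier library was at or below 0.12. The summed reads scaled for depth were 29.3 times higher at 6 h than at 0 h in SPT6-AID cells (95% interval 11 to 110) and 13.2 times higher in PAF1-AID cells (4.92 to 49.7), intervals that cover counting error only.

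A gene that passes the filter on low counts only through its 6 h libraries had to differ between time points, so the fitted changes and calls of SPATA18 describe it and are no independent test. They were 4.78 ± 0.83 (adjusted p = 0.00223) at 6 h in SPT6-AID cells and 3.65 ± 0.84 (adjusted p = 0.0216) in PAF1-AID cells. From 2 to 6 h the SPT6-AID change was 4.51 ± 0.79 (adjusted p = 0.00494). With no filter on low counts the changes against 0 h were 4.76 and 3.65 (adjusted p = 1.84e-09 and 3.5e-05). These much smaller adjusted p came from the same few reads and nearly the same changes, so they are no independent check either. Why they were smaller was not tested. The SPT6-AID change against 0 h was 5.64 without 0 h replicate 1 and 4.24 without 0 h replicate 2, and that against 2 h was 6.49 without 2 h replicate 1 and 3.30 without 2 h replicate 2, all still called. The PAF1-AID call was lost without 0 h replicate 3 (4.58, adjusted p = 0.0766), 0 h replicate 4 (3.10, adjusted p = 0.123) or 6 h replicate 3 (3.18, adjusted p = 0.14). Even at its highest the gene stayed the lowest of the 9 per length, at 0.213 ± 0.0136 RPKM (SD, n = 2) against 0.944 for SESN1.

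GDF15, a secreted stress cytokine of the TGF-beta superfamily (ENSG00000130513, chr19:18374731-18389176, plus strand), was the most abundant member per length in every group, from 41.8 RPKM (PAF1-AID 6 h) to 88.0 RPKM (PAF1-AID 2 h). In SPT6-AID cells it ranged from 94.9 to 160 CPM with the 6 h libraries, at 95.8 and 160, overlapping the 0 h libraries at 128 and 147. The 2 h libraries, at 94.9 and 110, lay below those at 0 h. That change did not pass (-0.42 ± 0.24, adjusted p = 0.932). In PAF1-AID cells GDF15 was at 163 and 117 CPM at 0 h, 208 and 159 at 2 h, and 90.2 and 84.3 at 6 h. There the 6 h libraries were below all others, at -0.68 ± 0.24 against 0 h (adjusted p = 0.105) and -1.07 ± 0.24 against 2 h (adjusted p = 0.07), neither past the threshold. Both passed when SPT6-AID 6 h replicate 1 (adjusted p = 0.046 and 0.0351) or 2 (0.0458 and 0.0353) was dropped from the fit, and DESeq2 called the step from 2 to 6 h (-1.06, adjusted p = 0.00273). GDF15 was the only member with the TATA box TATAAA in its window, a motif in 11.6% of all windows. The 30 bases shown, chr19:18386118-18386147 on the plus strand, end 11 bases before the RefSeq start and lie in an exon of another annotated transcript, with the TATA box in capitals.
GDF15: agtccggggacTATAAAggccggtccggca

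**Figure D2:**
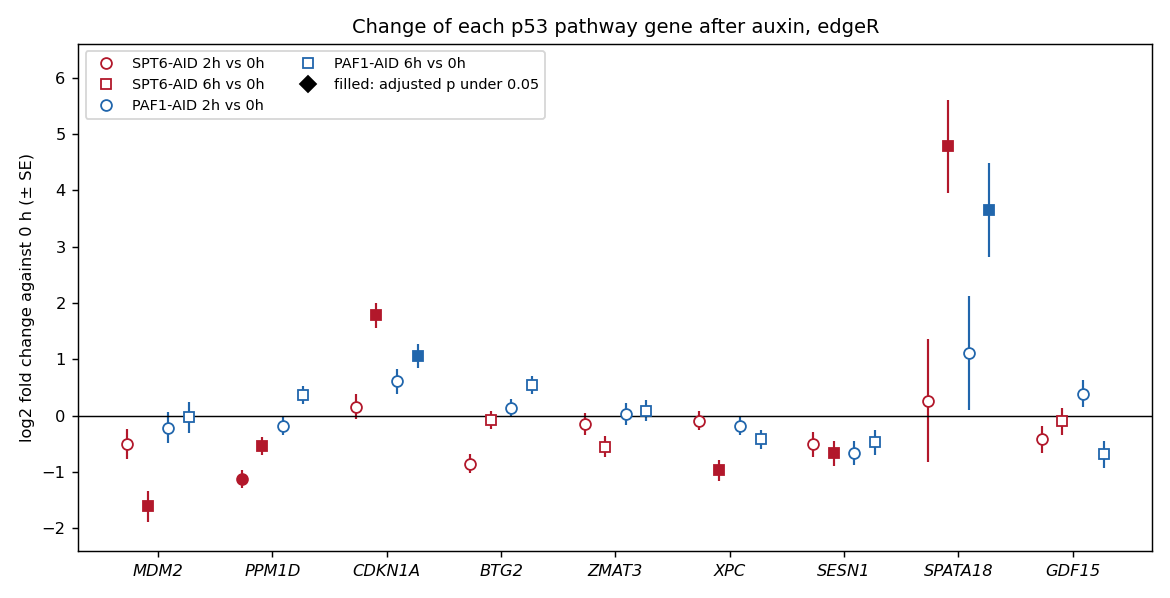
Log2 fold change against 0 h (vertical axis) for each of the 9 genes (horizontal axis) at 2 h (circles) and 6 h (squares) in SPT6-AID (red) and PAF1-AID (blue) cells; bars are the standard error and filled symbols have an adjusted p under 0.05 in edgeR. CDKN1A (1.78 and 1.06) and SPATA18 (4.78 and 3.65) are called in both lines at 6 h, and MDM2 only in SPT6-AID cells (-1.61).

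Between 2 and 6 h CDKN1A, SPATA18, PPM1D and BTG2 rose in SPT6-AID cells, and MDM2 and XPC fell. Without SPATA18 this is 5 of 8 members, 3 higher and 2 lower, against 15.7% of all genes, 5.32% higher and 10.4% lower. MDM2 fell by 1.11 on the log2 scale (adjusted p = 0.0233) over this step, a call lost without 2 h replicate 1 (adjusted p = 0.102), 2 h replicate 2 (0.0625) or 6 h replicate 2 (-0.69, adjusted p = 0.0981). Fewer of the 9 were called without 2 h replicate 1, 2 h replicate 2 or 6 h replicate 2, in fits that made fewer calls over all genes too. In PAF1-AID cells 0 of 9 members were called over this step (0.875% of all genes), with 4 at an unadjusted p under 0.05. DESeq2 called 2 of them (PPM1D and GDF15), and over all genes 331 higher and 550 lower. limma-voom called 0 members.

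The 2 lines were then compared by the difference between their responses, an interaction term in the same fit. At 6 h 0 of 9 members passed this test, against 3.74% of all genes. An unadjusted p under 0.05 was found for 6 members, and the share of all genes at that level was not counted. DESeq2 called 2 members, and over all genes 271 higher and 1088 lower. limma-voom called 1 member, and over all genes 137 higher and 654 lower. MDM2 came close, at a difference (SPT6-AID minus PAF1-AID) of -1.57 on the log2 scale (95% interval -2.44 to -0.71, adjusted p = 0.0555), and DESeq2 and limma-voom called it (adjusted p = 0.00458 and 0.0401). Without SPT6-AID 6 h replicate 1 the MDM2 difference was -2.14 and was called (adjusted p = 0.00606). PPM1D differed by -0.91 (-1.41 to -0.41, adjusted p = 0.0552), with DESeq2 at 0.0113. The rise of CDKN1A differed by 0.72 (0.04 to 1.40, adjusted p = 0.273), and that of SPATA18 by 1.12 (-1.84 to 4.09), an interval too wide to rank the lines. At 2 h 0 of 9 passed (0.0337% of all genes, 3 at an unadjusted p under 0.05, 2 by DESeq2, 0 by limma-voom). Over all genes DESeq2 called 7 higher and 50 lower there. PPM1D and BTG2 were the 2 called by DESeq2, with differences of -0.95 (-1.45 to -0.45, adjusted p = 0.53 in edgeR and 0.0443 in DESeq2) and -0.99 (-1.51 to -0.47, adjusted p = 0.53 and 0.0335).

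**Figure D3:**
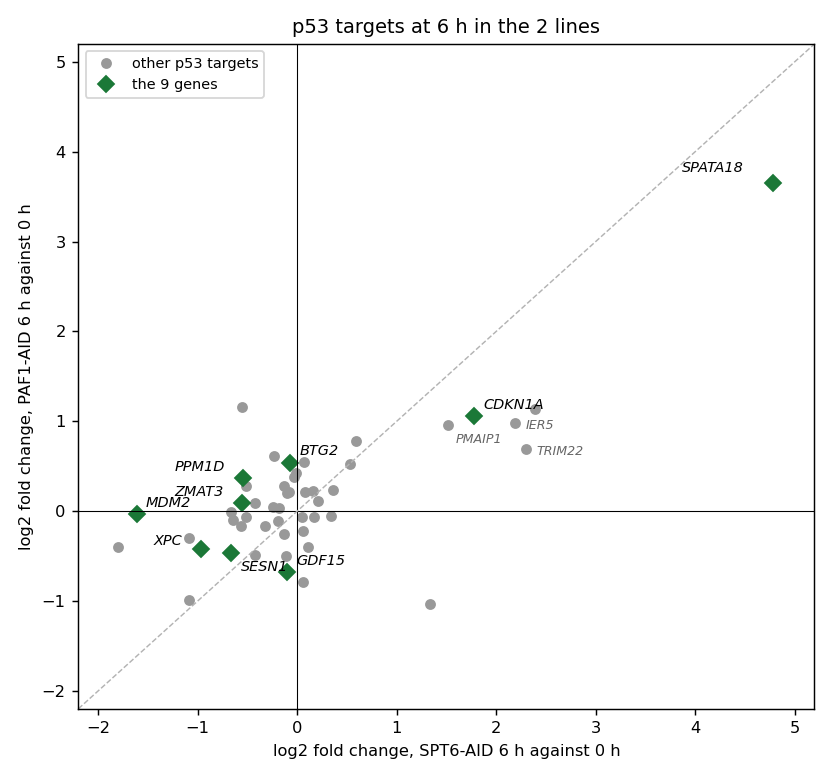
Log2 fold change at 6 h against 0 h in SPT6-AID cells (horizontal axis) and PAF1-AID cells (vertical axis) for the 9 genes (green diamonds) and the other p53 targets tested (grey circles); the dashed line marks equal change. SPATA18 and CDKN1A lie at the upper right together with IER5 and PMAIP1, and MDM2 lies at -1.61 and -0.03.

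Fly counts gave an alternative scale, and on it the median of all genes moved by -0.39 (log2) in SPT6-AID and -0.37 in PAF1-AID cells from 0 to 6 h. The amount of fly material and how it was added are not given in the sources used here. With fly totals as library sizes the calls over all genes at 6 h in SPT6-AID cells were 958 higher and 5842 lower, instead of 1821 and 3409. In PAF1-AID cells they were 296 and 2865, instead of 873 and 1394. The 6 SPT6-AID calls at 6 h kept their direction on this scale: CDKN1A 1.32, SPATA18 4.36, MDM2 -1.99, XPC -1.39, PPM1D -0.98 and SESN1 -1.12. ZMAT3 joined them, at -0.98 (adjusted p = 0.0162). The fly scale lowers all genes by a similar amount, so members that had fallen on the TMM scale could not change direction. In PAF1-AID cells SPATA18 kept its call (3.26, adjusted p = 0.0357), CDKN1A lost it (0.64, adjusted p = 0.114), and GDF15 (-1.09, adjusted p = 0.0152) and SESN1 (-0.86, adjusted p = 0.0275) were called as lower. The rises of PPM1D (0.28) and BTG2 (0.49) from 2 to 6 h in SPT6-AID cells were no longer called on the fly scale.

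**Figure D4:**
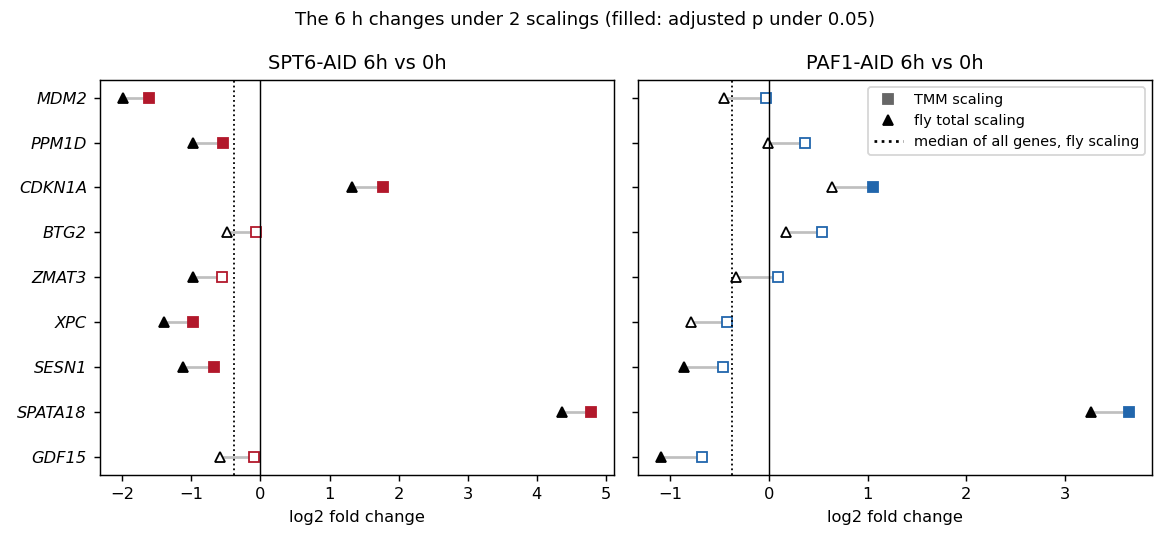
Log2 fold change at 6 h against 0 h (horizontal axis) for each of the 9 genes (vertical axis) with TMM scaling (squares) and with fly totals as library sizes (triangles); filled symbols have an adjusted p under 0.05, and the dotted line is the median of all genes on the fly scale. Every gene lies further left on the fly scale, and CDKN1A in PAF1-AID cells drops from 1.06 to 0.64.

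Among the regulators upstream of the members, MDM4, the MDM2 relative that blocks the activation domain of p53, fell in SPT6-AID cells from 24.8 and 28.2 CPM to 6.71 and 13.4 (-1.39 ± 0.37, adjusted p = 0.0188). In PAF1-AID cells it was at 15.2 and 33.0 CPM at 0 h and 12.2 and 14.1 at 6 h (-0.87 ± 0.36, adjusted p = 0.159).

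Of 17 p53 regulators tested, 0 rose and 7 fell at 6 h in SPT6-AID cells, against 8.76% of all genes called higher and 16.4% lower, and their median log2 fold change was -0.44 against 0.04 over all genes. The acetyltransferase genes EP300 (-1.73 ± 0.23, adjusted p = 0.000615), CREBBP (-1.36 ± 0.23, adjusted p = 0.00217) and KAT5 (-1.05 ± 0.15, adjusted p = 0.000887) and the ubiquitin ligase gene COP1 (-0.99 ± 0.16, adjusted p = 0.00168) were among them. In PAF1-AID cells 2 of 17 fell, against 6.7% of all genes. They were KAT5 (-0.86 ± 0.15, adjusted p = 0.00668) and the checkpoint kinase gene CHEK1 (-0.63 ± 0.12, adjusted p = 0.00845). EP300 was the only regulator of the 17 called for a difference between the responses of the lines at 6 h (-1.48 ± 0.32, adjusted p = 0.0369), against 3.74% of all genes. An unadjusted p under 0.05 was found for 5 of the 17, so the others are not shown to respond alike. With fly totals as library sizes this test called only 7 genes higher and 9 lower over all genes. The regulators were not followed through the alternative fits.

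Of 41 other p53 targets tested, 5 rose and 6 fell at 6 h in SPT6-AID cells, with a median of -0.08 against 0.04 over all genes. These 11 of 41 are a share close to the 25.2% of all genes called. With fly totals as library sizes 4 were called higher and 14 lower. IER5, a stress-induced regulator of heat shock factor (2.19 ± 0.21, adjusted p = 0.000153), and PMAIP1, which encodes the pro-apoptotic protein NOXA (1.52 ± 0.21, adjusted p = 0.000643), rose beside CDKN1A. The others that rose, named after their values were seen, included TRIM22 and FUCA1, and those that fell were POLH, TNFRSF10B, APAF1, AEN, EPHA2 and KITLG. Fewer of the 11 calls held without SPT6-AID 0 h replicate 1, 0 h replicate 2 or 6 h replicate 2. These fits made fewer calls over all genes too. In PAF1-AID cells 4 rose and 1 fell, a share close to the 10.9% of all genes called, and with fly totals 0 were called higher and 4 lower, with 1 call shared between the scales. Those that rose on the TMM scale included IER5 (0.98 ± 0.21, adjusted p = 0.0147), PMAIP1 (0.96 ± 0.21, adjusted p = 0.0156) and the lysosomal fucosidase gene FUCA1 (0.52 ± 0.13, adjusted p = 0.028). TIGAR was also higher, and APAF1, which forms the apoptosome, fell (-0.99 ± 0.25, adjusted p = 0.0304). Of these 5 calls none was left when 0 h replicate 4 or 6 h replicate 3 of the line was dropped. Fewer were left when 0 h replicate 3, 6 h replicate 4 or 2 h replicate 4 was dropped. All of these fits made fewer calls over all genes as well. The rise of IER5 was larger in SPT6-AID cells (difference 1.21 ± 0.29, adjusted p = 0.0486). At 2 h 1 of 41 was called in SPT6-AID cells, against 0.548% of all genes called, 0.462% lower. It was the polo-like kinase gene PLK2, which was lower (-1.1 ± 0.19, edgeR adjusted p = 0.0417). This call was lost in the fit of the line alone and without any 0 h or 2 h library of the line. In PAF1-AID cells 0 of 41 were called at 2 h, against 0.149% of all genes (1 with an unadjusted p under 0.05, 0 by DESeq2 and by limma-voom).

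The members' profiles over the 12 libraries were compared with those of 13280 genes by the root mean square difference of mean-centred log2 CPM. The nearest to CDKN1A were GPR3 (0.163), PNRC1 (0.165) and HSPA1A (0.22), whose log2 fold changes at 6 h in SPT6-AID cells were 1.93, 1.68 and 1.35. HSPA1A has a near-identical copy, so its counts are uncertain. Nearest to MDM2 were PLEKHG3 (0.139), MTPAP (0.149) and MED13 (0.17), and near XPC were SLC29A3 (0.0799) and SQLE (0.0976). For PPM1D they were ZNF92 (0.128), SOCS6 (0.146) and USPL1 (0.155), and for BTG2 FBXL14 (0.13), IFFO2 (0.132) and FBXO5 (0.137). ENPP4 (0.0912) was nearest to ZMAT3, ZKSCAN5 (0.159) to SESN1 and LIF (0.265) to GDF15. The genes compared all averaged 1 or more in log2 CPM, far above the mean of -2.4 of SPATA18, so near-silent genes like it were not candidates, and the nearest among those compared was PPFIA4 at 0.552. Among the 9, the closest pair was PPM1D and BTG2 (0.199), and the farthest was MDM2 and SPATA18 (2.03). All distances share the same libraries and are descriptions, with no test.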

How the data were processed

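Poly(A) RNA-seq libraries of 12 samples were analysed from a table of whole-number read counts per gene, deposited by the authors without normalization. Per the submitters' processing notes, the tools were STAR 2.7.5, cutadapt 1.14 and featureCounts 2.0.0, and the builds were GRCh38 (human) and BDGP6 (fly). Per the labels' protocols the library kit was directional. The strand setting of the counting and the annotation release are not given in the sources used here. The deposited transcript and gene lengths were taken as bases.

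Human genes that passed filterByExpr (20791, all 9 members among them) were scaled by TMM and fitted in edgeR 4.0.16 (R 4.3.3) with 6 group means over 12 libraries. Contrasts were tested with the quasi-likelihood test and their p-values adjusted over these genes by Benjamini-Hochberg (threshold 0.05). Shares of all genes at an unadjusted p under 0.05 were not counted. A standard error is the absolute log2 fold change over the square root of the F statistic. This edgeR fit was tested on simulated counts with known changes. Replicates of a group differed by a chi-square per degree of freedom of 34.1 to 63.1, so none were copies. Counting error is small for all members except SPATA18.

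The members, the lists of p53 regulators, other p53 targets and paralogs or partners of the members, the markers and the tests were chosen with earlier results of these data known. Named genes were all members, MDM4, up to 4 listed genes in each direction with the smallest p in each comparison with 0 h, and the nearest profiles (prior count 2, mean log2 CPM of at least 1). Some genes that met the rule are not reported here. Others are said to be named after their values were seen. Alternatives were DESeq2 1.42.0 (size factors and Wald test), limma-voom (limma 3.58.1), total human or fly counts as library sizes, other filters, the replicate number as a block, fits restricted to 1 line, the gene length and leaving out each library. A group left with 1 library borrows its spread from the other groups. Gene positions came from GENCODE 29 and promoter sequences from RefSeq (GRCh38.p14), in windows from 250 bases before to 50 after a start, which existed for all 9 members (15 windows).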

Additional observations from a re-analysis of the deposited data

How the results depend on the processing

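The calls of CDKN1A, MDM2 and XPC in SPT6-AID cells at 6 h held under every alternative. SPATA18 was also called wherever it was tested (a mean of at least 1 CPM removes it). Most of those fits reuse the filter that it passed only through its 6 h libraries, so they are no independent check of it. The counts of called members and of other p53 targets that moved by more than 1.5 times were as follows, and the cause was not tested. With no filter on low counts they were 2 members and 3 other targets for SPT6-AID 2 h against 0 h (1 and 1 in the original fit), 1 other target for PAF1-AID 2 h against 0 h (0), 10 other targets for PAF1-AID 6 h against 0 h (5), 2 members for PAF1-AID 6 h against 2 h (0) and 1 member for the difference between responses at 6 h (0). Calls over all genes, of which more were then tested, rose too. They were 86 higher and 294 lower for SPT6-AID 2 h (18 and 96 in the original fit). PAF1-AID 2 h had 100 and 174 (14 and 17), and 6 h against 0 h 1138 and 1713 (873 and 1394). PAF1-AID 6 h against 2 h had 265 and 398 (60 and 122). The difference at 6 h had 325 and 1005 (129 and 649). With a mean of at least 1 CPM, 3 members were called for SPT6-AID 6 h against 0 h (6). Over all genes that filter gave 1355 higher and 2699 lower (1821 and 3409). DESeq2's Wald test called 2 members and 4 other targets for SPT6-AID 2 h, 8 other targets for PAF1-AID 6 h against 0 h, and 2 members each for PAF1-AID 6 h against 2 h and for the differences at 2 h and 6 h. Over all genes it called 55 higher and 454 lower for SPT6-AID 2 h, and 1211 and 1776 for PAF1-AID 6 h against 0 h. PAF1-AID 6 h against 2 h had 331 and 550. The differences had 7 and 50 at 2 h (3 and 4 in the original fit) and 271 and 1088 at 6 h. limma-voom called 2 members for SPT6-AID 2 h and 1 for the difference at 6 h. Over all genes its calls there were 16 higher and 141 lower, and 137 higher and 654 lower. Fly totals called 18 other targets for SPT6-AID 6 h against 0 h, 4 higher and 14 lower (11, 5 higher and 6 lower). The fit of the line alone called 0 members and 0 other targets for SPT6-AID 2 h and 8 other targets for PAF1-AID 6 h against 0 h. Over all genes it called only 7 higher and 1 lower for SPT6-AID 2 h. For PAF1-AID 6 h against 0 h it called 853 and 1583.

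The replicate number, which the labels carry across the time points of a line, could pair libraries, but the labels do not say that it marks a shared culture or day, and each comparison has only 2 pairs. Deviations of same-numbered libraries from their group means correlated at 0.57 to 0.66 over 20791 genes in SPT6-AID and 0.49 to 0.53 in PAF1-AID cells. With the number as a block, 3 members and 6 other targets were called for SPT6-AID 2 h, 23 other targets for SPT6-AID 6 h against 0 h, 2 members and 4 other targets for PAF1-AID 2 h, 7 members and 20 other targets for PAF1-AID 6 h against 0 h, 5 members for PAF1-AID 6 h against 2 h, and 2 and 6 members for the differences at 2 h and 6 h. The 6 were MDM2 (-1.64, adjusted p = 9.54e-05), PPM1D (-0.92, 0.000121), CDKN1A (0.72, 0.00138), ZMAT3 (-0.65, 0.00183), XPC (-0.55, 0.0069) and BTG2 (-0.62, 0.00827). Calls over all genes rose with the block too (original fit in brackets). For SPT6-AID 2 h they were 266 higher and 1347 lower (18 and 96). For SPT6-AID 6 h against 0 h they were 4927 and 5756 (1821 and 3409). PAF1-AID 2 h had 480 and 972 (14 and 17), and 6 h against 0 h 3827 and 4131 (873 and 1394). PAF1-AID 6 h against 2 h had 1743 and 2429 (60 and 122). The differences had 19 and 221 at 2 h (3 and 4) and 1317 and 3196 at 6 h (129 and 649).

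Leaving out each library in turn gave 0 to 1 members and 0 to 1 other targets for SPT6-AID 2 h, 4 to 6 and 4 to 11 for SPT6-AID 6 h against 0 h, 3 to 6 members for SPT6-AID 6 h against 2 h, 0 to 3 and 0 to 7 for PAF1-AID 6 h against 0 h, and 0 to 1 members for PAF1-AID 6 h against 2 h and for the difference at 6 h.

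Calls over all genes also varied widely between the fits that left out a library, so these ranges are not particular to the members or targets. Directions turned only for values that were not called. At 6 h in PAF1-AID cells ZMAT3 (0.09) became -0.03 with total human counts and -0.33 with fly totals, ran from -0.14 to 0.37 without single libraries, and PPM1D (0.37) became -0.01 with fly totals. MDM2 there ran from -0.28 to 0.27. At 6 h in SPT6-AID cells GDF15 (-0.10) became 0.01 and BTG2 (-0.07) became 0.05 with a mean of at least 1 CPM, and without single libraries they ran from -0.51 to 0.26 and from -0.16 to 0.01.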

Other observations

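Of 16 paralogs and partners of the members tested, 3 rose and 3 fell at 6 h in SPT6-AID cells, against 8.76% of all genes called higher and 16.4% lower, with a median log2 fold change of 0.06 against 0.04 over all genes. CDKN1C, which encodes p57, the relative of p21, rose by 2.98 ± 0.35 (edgeR adjusted p = 0.000343), and TOB1, an antiproliferative relative of BTG2, rose by 0.98 ± 0.13 (adjusted p = 0.000484). TOB2 was the other that rose, and the phosphatase genes PPM1B (-0.86 ± 0.16, adjusted p = 0.00346) and PPM1A and the MDM2 relative MDM4 fell. TOB2, PPM1B and PPM1A were named after their values were seen. In PAF1-AID cells 1 of 16 rose and 0 fell, against 4.2% and 6.7% of all genes. It was TOB1 (0.95 ± 0.13, adjusted p = 0.00232). The response of PPM1B at 6 h was lower in SPT6-AID than in PAF1-AID cells (-0.98 ± 0.23, adjusted p = 0.0426).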
